A study of Mus musculus with 15 samples.

Results

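Sorted day 4 PGCLCs (D4PGCLCs) were compared with epiblast-like cells (EpiLCs), the stage from which they are induced, across all genes, in 3 samples of each group out of 15 samples in the series. Samples were taken by their labelled cell type and day. Every group carried doxycycline (Dox)-inducible transgenes for *Prdm1*, *Prdm14*, *Tfap2c* and *Nanog* (the 4TFs) in male mouse ESCs that bear a Stella-eGFP reporter. The *Tfap2c* transgene was delivered by lentivirus, and the others and a Tet activator (rtTA) by piggyBac. EpiLCs were made from these ESCs by 48 hours on fibronectin in N2B27 medium with 20 ng/ml Activin A, 12 ng/ml bFGF and 1% knockout serum replacement, a step for which no Dox is listed. For D4PGCLCs, EpiLCs were aggregated in GK15 medium with Dox at 2 µg/ml and no inducing cytokine, and Stella-eGFP+ cells were sorted on day 4. The remaining samples were naive ESCs in 2i and LIF, and PGCLCs sorted in the same way on day 2 (D2PGCLCs) and day 6 (D6PGCLCs), with 3 samples of each. The inducible cells came from a clonal line, and no sort of the EpiLCs is described. Transgene induction, aggregation, the change of medium, time and the sort all separate D4PGCLCs from EpiLCs and cannot be told apart here.

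Mouse primordial germ cells (PGCs) arise from the epiblast, which by then has left naive pluripotency and expresses formative genes such as *Fgf5*, *Otx2* and *Pou3f1*. In the embryo BMP signalling starts the process, and PRDM1, PRDM14 and TFAP2C then repress somatic genes, bring back parts of the naive pluripotency network and switch on germ cell genes. PGCs afterwards erase DNA methylation across the genome, which in the embryo precedes expression of the later germ cell genes used in meiosis and in piRNA silencing of transposons.

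The libraries held 27839735 to 32594579 counts in EpiLCs and 32146690 to 34245229 in D4PGCLCs, so 3 counts corresponded to 0.115 CPM (counts scaled to 1e+06 per library) or less. Replicates differed by more than counting noise in both groups. The root mean square log2 distance was 1.38 between groups, 0.613 among EpiLCs and 0.559 among D4PGCLCs. D6PGCLC replicate 1 had counts for fewer genes than any other sample, 18061, and entered only the shared estimate of spread and the D6PGCLC values. No label says that replicates came from separate cultures, so p-values measure the spread between these samples only.

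Of 18090 genes tested, 2532 (14.0%) were higher and 2322 (12.8%) lower in D4PGCLCs when tested in edgeR (quasi-likelihood test). Calls required a Benjamini-Hochberg adjusted p below 0.05 together with a log2 fold change beyond 1 in size. "Rose", "fell" and "called" refer below to genes past both limits. Log2 fold changes are D4PGCLCs minus EpiLCs unless stated and carry the SE of the fit, while levels are CPM in replicates 1, 2 and 3. The median log2 fold change over all genes was 0.034, and it was 1.78 among genes that rose and -2.11 among genes that fell. Losses were larger than gains at the extremes, with 204 genes that fell and 135 that rose by more than 5 on the log2 scale. The 3 D4PGCLC values lay above all 3 EpiLC values for 5813 genes (32.1%) and below them for 5390 (29.8%), and 2484 of the 2532 genes that rose and 2286 of the 2322 that fell were among these. In bulk samples, fewer cells of a type and less RNA per cell cannot be told apart.

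**Figure D1:**
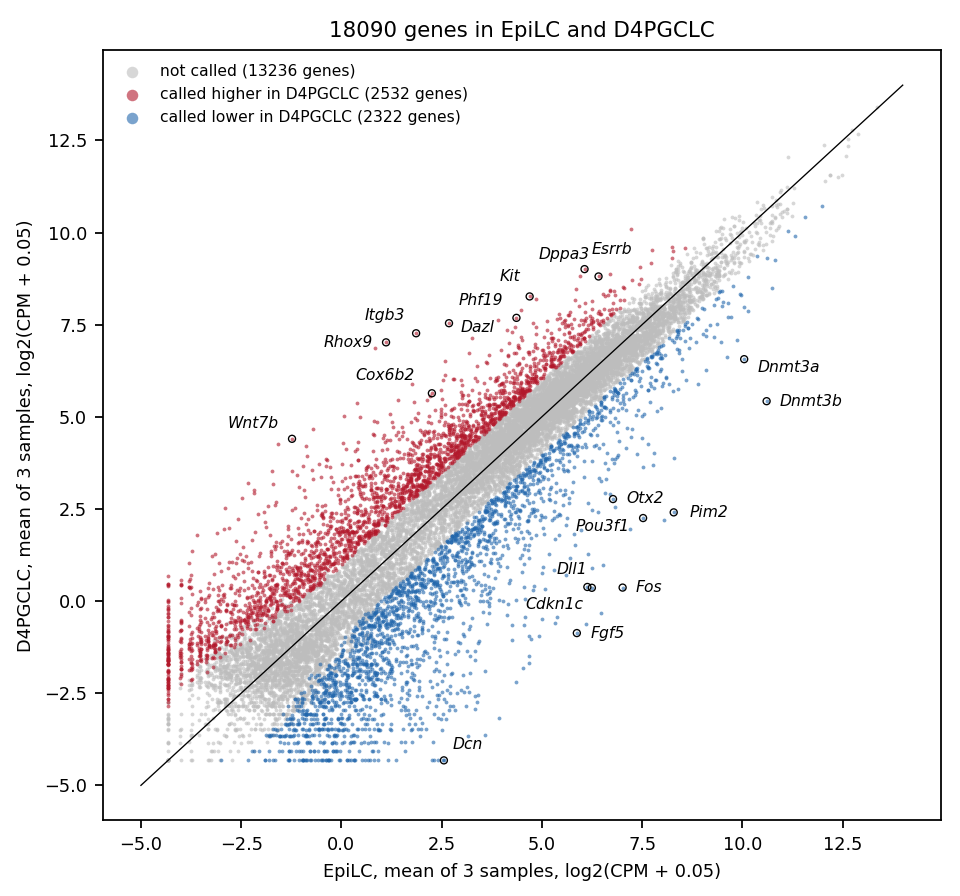
Mean expression of 18090 genes in EpiLCs (x axis) and D4PGCLCs (y axis), each the mean of 3 samples as log2 of CPM plus 0.05. Red points are the 2532 genes that rose, blue points the 2322 that fell and gray points those not called, and the line marks equal levels. *Dnmt3b*, *Fgf5* and *Pim2* lie far below the line, and *Itgb3*, *Rhox9* and *Wnt7b* far above it.

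Reads from the 4 transgenes were not separated from those of the endogenous genes. Of the 4TFs, *Tfap2c*, which encodes the transcription factor AP-2 gamma, rose. Its levels were 53, 60.0 and 55.3 CPM in EpiLCs and 189.5, 214 and 201 in D4PGCLCs, a log2 fold change of 1.85 ± 0.08. The groups did not overlap. *Nanog* was at 462, 582 and 583 CPM in EpiLCs and 691, 851 and 759.6 in D4PGCLCs, and *Prdm1* at 59.6, 80.9 and 74.2 against 108, 85.9 and 89.3, so that both were higher in every D4PGCLC sample without reaching the fold limit. *Prdm14* levels overlapped, at 78.7, 106 and 105 CPM in EpiLCs and 84.3, 98.4 and 87.8 in D4PGCLCs. All 4 were counted in every EpiLC sample.

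The formative and primed epiblast list marked the EpiLCs as labelled, and most of it was lost by day 4. Of 24 genes tested 18 fell and 2 rose, with a median log2 fold change of -2.32. *Fgf5*, the growth factor gene that defines the formative epiblast, was at 53.9, 64.9 and 56.7 CPM in EpiLCs and 0.606, 0.572 and 0.315 in D4PGCLCs (-6.87 ± 0.34). The POU factor gene *Pou3f1* was at 192, 169 and 191 against 4.43, 5.57 and 4.15 CPM (-5.29 ± 0.24). *Otx2*, whose product holds back germ cell entry in the embryo, was at 88.9, 121 and 118 against 7.09, 9.19 and 4.01 CPM (-4.02 ± 0.27). For all 3 genes the highest D4PGCLC sample lay far below the lowest EpiLC sample. *Sox11* (-4.33 ± 0.20), *Sall2* (-4.80 ± 0.27), *Sox3* (-3.97 ± 0.35) and *Sox4* (-2.98 ± 0.15) fell as well. The genes that rose were *Etv4*, an ETS factor gene (1.35 ± 0.15), and *Dact1*, which encodes a WNT pathway modulator (1.56 ± 0.16). *Etv5* (0.09 ± 0.07) was not called.

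Naive pluripotency genes moved the other way, and some of them remained below their level in naive ESCs. Of 20 genes tested 13 rose and 2 fell, and the median was 1.26. *Esrrb*, an orphan nuclear receptor gene, was at 61.7, 70.5 and 68.4 CPM in EpiLCs and 509, 559.8 and 475 in D4PGCLCs (2.94 ± 0.08), with a mean of 590.2 in ESCs. *Klf5* was likewise at 14.5, 22.4 and 20.0 against 150.1, 150.0 and 169.9 CPM (3.04 ± 0.15), with 173 in ESCs. Against ESCs the day 4 level differed by -0.20 ± 0.08 for *Esrrb* and -0.15 ± 0.14 for *Klf5*, inside the fold limit. By contrast, *Tfcp2l1* was at 19.8, 25 and 22.5 CPM in EpiLCs and 148, 155 and 100.4 in D4PGCLCs (2.58 ± 0.14) but averaged 685 in ESCs, a difference of -2.35 ± 0.13 (D4PGCLCs minus ESCs). *Tbx3* was at 6.2, 7.5 and 7.27 against 35.9, 36.7 and 40.6 CPM (2.43 ± 0.10), with 155 in ESCs (-2.04 ± 0.10 against ESCs). Both rose from the EpiLC level and were still called lower than in ESCs. *Klf4*, a target of LIF signalling, was not called (-0.36 ± 0.15), at 14, 17.8 and 16.8 CPM in EpiLCs and 10.5, 13.5 and 13.9 in D4PGCLCs against 173 in ESCs. Against ESCs, 9 of the 20 genes were called lower in D4PGCLCs and 2 were called higher, where the shares over all genes were 10.9% and 13.9%. *Fgf4* (-1.04 ± 0.14) and *Gbx2* (-1.35 ± 0.25) fell, and the *Fgf4* call was lost without any of 4 single samples. Among 14 general pluripotency genes none rose and 5 fell. *Pou5f1*, which both cell states need, overlapped at 974, 888 and 962 CPM in EpiLCs and 876, 1089 and 1089 in D4PGCLCs. The RNA-binding protein genes *Lin28a* (-2.82 ± 0.12) and *Lin28b* (-2.25 ± 0.13) were the members that fell furthest.

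**Figure D2:**
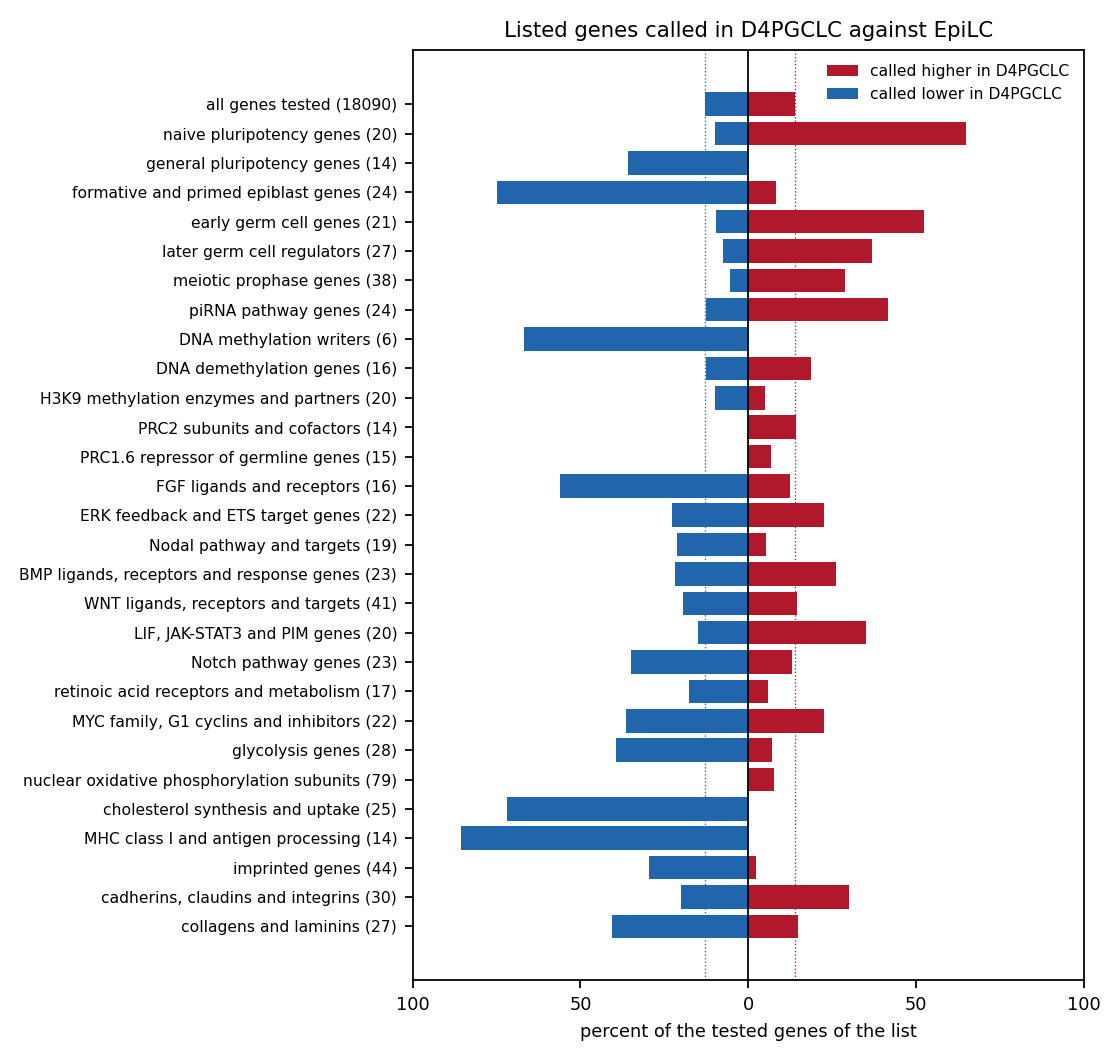
Share of the tested genes of each list that rose (red, to the right) or fell (blue, to the left) in D4PGCLCs against EpiLCs, with the number tested in brackets. The top bar and the dotted lines give the shares over all 18090 genes, 14.0% and 12.8%. Among the lists drawn, MHC class I, formative epiblast and cholesterol genes reach furthest to the left and naive pluripotency and early germ cell genes furthest to the right.

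Genes that write DNA methylation fell. Of 6 tested, 4 fell and none rose. The de novo methyltransferase gene *Dnmt3b* was at 1489, 1611 and 1576 CPM in EpiLCs and 43.1, 53.8 and 31.8 in D4PGCLCs (-5.18 ± 0.16), and *Dnmt3a* at 991, 1075 and 1104 against 90.6, 125 and 68.3 (-3.48 ± 0.19). The cofactor gene *Dnmt3l* was at 413, 398 and 430.1 against 114, 203 and 103 CPM (-1.56 ± 0.25). D4PGCLC replicate 2 was the highest of its group for all 3 genes, yet every D4PGCLC value lay below every EpiLC value. *Uhrf1*, which guides the maintenance enzyme to newly made DNA, was at 499.9, 538 and 553 against 239, 292 and 205 CPM (-1.11 ± 0.10), while the maintenance methyltransferase gene *Dnmt1* overlapped between groups (0.17 ± 0.08). Against ESCs, *Dnmt3b* was also lower at day 4 (-1.65 ± 0.14) and *Dnmt3a* was not called (0.31 ± 0.17). Among 16 genes linked to demethylation 3 rose (18.8%) and 2 fell (12.5%), shares close to the 14.0% and 12.8% over all genes. The stress-induced *Gadd45g* was at 72.5, 70.4 and 70.1 CPM in EpiLCs and 1.43, 2.53 and 3.21 in D4PGCLCs (-4.89 ± 0.24), and its relative *Gadd45b* at 7.38, 6.97 and 9.03 against 43.7, 55.6 and 53.4 (2.71 ± 0.14). These moved in opposite directions without overlap. *Tet2* rose (1.27 ± 0.18) and the glycosylase gene *Tdg* fell just past the fold limit (-1.02 ± 0.08), whereas *Tet1*, the most highly counted of the Tet dioxygenases, was at 338, 437 and 389 CPM in EpiLCs and 497, 391 and 315 in D4PGCLCs.

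Early germ cell genes rose in the largest share after the naive genes, with 11 of 21 tested higher, 2 lower and a median of 1.82. *Dppa3* encodes Stella, on whose reporter the PGCLCs were sorted, and its levels of 101, 75.8 and 79 CPM in EpiLCs and 406, 424 and 515 in D4PGCLCs are partly set by the sort. *Itgb3* (ENSMUSG00000020689, chr11:104608000-104670476 in mm10), which encodes the integrin beta-3 chain used as a PGCLC surface marker, was at 3.87, 3.45 and 3.45 CPM in EpiLCs and 172, 141 and 149 in D4PGCLCs (5.42 ± 0.12; edgeR adjusted p = 1.7e-16). *Kit*, the receptor for stem cell factor, was at 20.1, 29.5 and 28 against 338, 299 and 286 CPM (3.57 ± 0.12). *Nanos3*, which encodes an RNA-binding protein needed for PGC survival, was at 0.765, 1.64 and 1.36 against 11.9, 21 and 19.16 CPM (3.77 ± 0.28). None of these groups overlapped. *Cxcr4*, the receptor that guides PGC migration (2.80 ± 0.26), *Alpl* (2.18 ± 0.10), *Dnd1* (1.82 ± 0.14), *Ifitm1* (2.29 ± 0.12) and *Ifitm3* (2.15 ± 0.14) rose too. *Nanos3* and *Dnd1* had their highest mean on day 4, and stood at 6.1, 9.76 and 6.15 and at 17.3, 17.7 and 21.6 CPM in the D6PGCLC samples. *Sox17*, a regulator of human rather than mouse PGCs, stayed below 1 CPM in all 6 samples.

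Before germ cells form, many later germ cell genes are held silent by promoter methylation and by PRC1.6, a Polycomb complex whose MGA, MAX and E2F6 subunits bind the E-box CACGTG and the E2F motif GCGGGAA. To show these motifs, 4 promoters of listed germ cell genes are given from RefSeq (GRCm38.p6), from 250 bases before to 50 bases after the annotated start, 5′ to 3′ on the gene's strand. Capitals mark CACGTG and GCGGGAA on either strand, and each motif was counted whether or not it overlapped another. *Stag3* (chr5:138280259-138280558, plus strand) and *Ddx4* (chr13:112652261-112652560, minus strand) rose, *Sycp3* (chr10:88459337-88459636, plus strand) was not called and *Piwil1* (chr5:128735996-128736295, plus strand) fell.
*Stag3*: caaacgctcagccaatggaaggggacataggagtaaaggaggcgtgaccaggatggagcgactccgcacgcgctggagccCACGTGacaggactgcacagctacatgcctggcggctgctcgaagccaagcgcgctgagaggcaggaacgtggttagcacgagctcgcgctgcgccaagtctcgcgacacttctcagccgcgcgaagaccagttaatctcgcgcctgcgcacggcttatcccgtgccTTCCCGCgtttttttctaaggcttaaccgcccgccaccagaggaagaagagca
*Ddx4*: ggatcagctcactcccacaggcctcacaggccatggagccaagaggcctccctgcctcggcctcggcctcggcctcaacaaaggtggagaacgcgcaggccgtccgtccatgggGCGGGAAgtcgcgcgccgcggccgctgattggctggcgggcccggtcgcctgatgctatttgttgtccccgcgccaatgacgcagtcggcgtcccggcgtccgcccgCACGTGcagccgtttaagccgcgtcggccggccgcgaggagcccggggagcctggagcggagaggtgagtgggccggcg
*Sycp3*: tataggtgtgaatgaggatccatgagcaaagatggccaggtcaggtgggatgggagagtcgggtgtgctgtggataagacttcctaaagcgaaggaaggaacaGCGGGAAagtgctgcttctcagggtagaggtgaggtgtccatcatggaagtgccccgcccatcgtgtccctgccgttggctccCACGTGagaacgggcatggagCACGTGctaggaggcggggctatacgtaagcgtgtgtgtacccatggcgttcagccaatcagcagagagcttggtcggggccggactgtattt
*Piwil1*: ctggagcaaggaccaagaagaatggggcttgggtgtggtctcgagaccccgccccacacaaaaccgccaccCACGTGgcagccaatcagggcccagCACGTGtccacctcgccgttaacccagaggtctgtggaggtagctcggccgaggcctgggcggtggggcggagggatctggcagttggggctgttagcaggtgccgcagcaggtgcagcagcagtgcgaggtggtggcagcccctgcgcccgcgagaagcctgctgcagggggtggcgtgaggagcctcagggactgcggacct
The E-box began 170 bases before the start in *Stag3* and 29 bases before it in *Ddx4*. *Sycp3* held it at 64 and 43 bases and *Piwil1* at 179 and 154 bases before the start. The E2F motif began 136 bases before the start in *Ddx4*, 147 in *Sycp3* and 3 in *Stag3*, there on the opposite strand.

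Of 85 listed protein-coding germ cell genes tested (later germ cell, meiotic and piRNA lists together), 67 had a promoter in the table. CACGTG was in the promoters of 21 of these genes (31.3%), against 11.4% of the 11482 protein-coding genes tested that had a promoter. GCGGGAA was in 18 (26.9%), against 9.6%. Within the lists, 7 of 24 genes that rose (29.2%) and 14 of 43 that did not (32.6%) held CACGTG, and 7 (29.2%) and 11 (25.6%) held GCGGGAA. The AP-2 motif GCCNNNGGC was in 22.4% of the listed genes and 28.7% of all. Over all genes that rose, the shares were 11.1% for CACGTG, 8.6% for GCGGGAA and 31.2% for GCCNNNGGC. Median CpG counts were 21.0 in the 300 bases of genes that rose and 14.0 in those of genes that fell. Over all protein-coding genes tested the median was also 21.0, so only the genes that fell differed from it. These counts are descriptions of sequence and carry no test.

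Some of the later germ cell genes rose strongly and more of them were not called. Of 27 later germ cell regulators tested, 10 rose (37.0%) and 2 fell (7.4%), with a median of 0.41. Over all genes 14.0% rose and 12.8% fell. *Rhox6* was at 1.95, 1.12 and 2.17 CPM in EpiLCs and 114, 102 and 132 in D4PGCLCs (6.07 ± 0.23), and *Rhox9* at 2.52, 2.2 and 1.61 against 123, 109 and 158 (5.94 ± 0.21). Both are homeobox genes of the X-linked Rhox cluster, lie at chrX:37826910-37829857 and chrX:37899097-37901770, and belong to a multigene family whose reads may be shared. *Dazl*, an RNA-binding protein gene needed for PGCs to commit to the germline, was at 6.28, 6.31 and 6.53 CPM in EpiLCs and 211, 137 and 211 in D4PGCLCs (4.87 ± 0.21). *Dazl* had risen by 2.25 ± 0.18 from day 2 to day 4 and reached 459.6, 360.2 and 464 CPM in the D6PGCLC samples, above every D4PGCLC sample. *Ddx4*, the germ cell RNA helicase, was at 16.5, 20.0 and 21.8 against 51.6, 40.4 and 47 CPM (1.26 ± 0.12). *Sohlh2* (58 CPM in EpiLCs on average, 61.4 in D4PGCLCs), *Dmrt1* (53.3 and 65.7) and *Tex15* (40.9 and 43.3) were not called and were already counted in EpiLCs. The genes that fell, *Nobox* and *Sohlh1*, averaged 1.16 and 0.274 CPM in EpiLCs, and both calls were lost when any of 4 single samples was left out. The *Sohlh1* call was also lost with DESeq2 and with all genes kept whatever their counts.

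**Figure D3:**
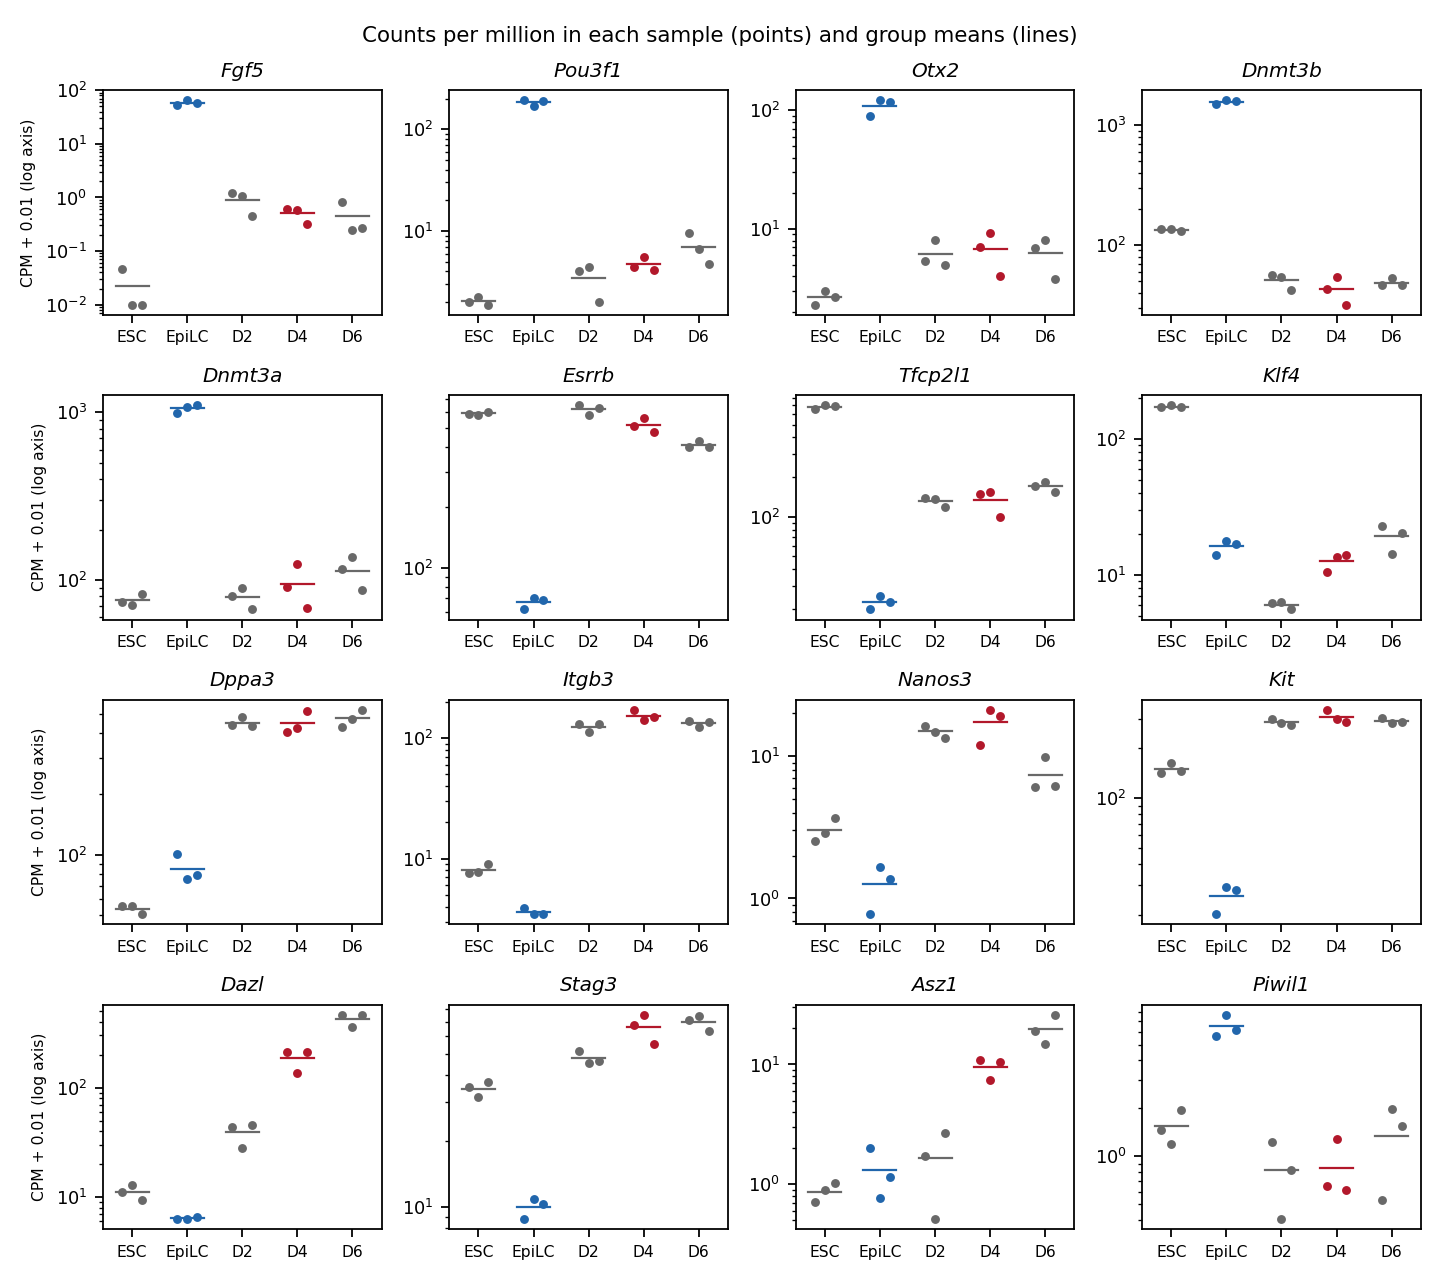
CPM of 16 genes in each sample of all 5 groups on log axes, with 0.01 added, and each panel with its own range. Points are samples and lines are group means, blue for EpiLCs and red for D4PGCLCs. *Fgf5*, *Dnmt3b* and *Piwil1* drop from EpiLCs to D4PGCLCs, *Itgb3* and *Kit* are high from day 2 onward, and the means of *Dazl* and *Asz1* climb through day 6.

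Of 38 meiotic genes tested, 11 rose (28.9%) and 2 fell (5.3%), against 14.0% and 12.8% over all genes, with a median of 0.44. Cohesin subunits used in meiosis were among those that rose. *Stag3* was at 8.8, 10.9 and 10.3 CPM in EpiLCs and 67.8, 75.2 and 55.5 in D4PGCLCs (2.72 ± 0.12), *Smc1b* at 11.1, 23.2 and 24.4 against 73.7, 47.8 and 68.4 (1.69 ± 0.22) and *Rec8* at 9.91, 7.43 and 9.72 against 18.5, 21.4 and 22.1 (1.20 ± 0.16). The groups did not overlap for these 3 genes, while the kleisin gene *Rad21l* fell from a mean of 0.554 to 0.107 CPM (-2.32 ± 0.86), a call lost without any of 5 single samples. *Meiob*, which acts in repair of meiotic breaks, was at 0.0765, 0.263 and 0.22 against 5.85, 4.19 and 5.36 CPM (4.73 ± 0.37). The retinoic acid target *Stra8* was at 6.58, 5.39 and 6.93 against 24.6, 24.4 and 34.1 CPM (2.14 ± 0.23), with 152, 129.9 and 194 CPM in the D6PGCLC samples. *Spo11*, which makes the breaks, fell from 1.24 to 0.11 CPM on average (-3.46 ± 0.89). The synaptonemal complex genes listed were not called, with *Sycp3* at 8.72, 8.48 and 8.81 CPM in EpiLCs and 5.97, 4.82 and 6.44 in D4PGCLCs, *Sycp1* at 0.20 ± 0.27 and *Sycp2* at 0.02 ± 0.42.

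In the piRNA pathway the Piwi genes moved apart. Of 24 genes 10 rose (41.7%) and 3 fell (12.5%), and the median was 0.44. Over all genes 14.0% rose and 12.8% fell, so the share that fell is close to that over all genes. *Piwil2* was at 14.9, 17.5 and 17.8 CPM in EpiLCs and 54.3, 50.01 and 47.6 in D4PGCLCs (1.59 ± 0.15). *Piwil1* was at 5.7, 7.7 and 6.2 against 0.637, 1.26 and 0.601 CPM (-2.97 ± 0.44), and *Piwil4* at 4.09, 3.35 and 4.66 against 0.879, 0.572 and 1.17 (-2.20 ± 0.36). The *Piwil2* groups did not overlap and neither did those of the other two, in the opposite direction. *Asz1*, a germ granule component, was at 1.99, 0.756 and 1.14 against 10.8, 7.41 and 10.4 CPM (2.89 ± 0.40), the helicase gene *Mov10l1* at 8.42, 7.1 and 7.96 against 29.2, 24.7 and 25.9 (1.77 ± 0.14), and *Tdrkh* rose by 1.5. Part of the later program moved between day 2 and day 4, when 2.56% of all genes rose and 0.376% fell. In that interval 5 of 27 later germ cell, 4 of 38 meiotic and 5 of 24 piRNA genes rose and none fell. *Tdrd12* (233 CPM in EpiLCs on average and 153 in D4PGCLCs), *Morc1* (128 and 103) and *Rnf17* (118 and 137) were above 100 CPM in both groups and not called.

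PRC1.6 and PRC2 are complexes that silence germ cell genes. Of 15 PRC1.6 genes 1 rose, the E3 ligase gene *Ring1* (2.14 ± 0.22), and none fell. Without the fold limit 4 of the 15 were higher and 8 lower, where 5357 and 4727 of all 18090 genes tested were. *Mga* was at 365, 445 and 393 CPM in EpiLCs and 268, 208 and 152 in D4PGCLCs (-0.94 ± 0.15) and *Pcgf6* at 109, 123 and 111 against 83.4, 74 and 81.9 (-0.52 ± 0.08). Both were lower in every D4PGCLC sample but inside the fold limit, whereas *E2f6* (-0.17 ± 0.09) and *Max* (0.02 ± 0.09) differed less. Among 14 PRC2 genes 2 rose (14.3%, close to the 14.0% over all genes) and none fell. *Phf19*, an accessory subunit that brings the complex to CpG islands, was at 21.3, 18.9 and 21.5 CPM in EpiLCs and 209, 202 and 206 in D4PGCLCs (3.32 ± 0.10). The catalytic and core subunits *Ezh2* (-0.07 ± 0.08), *Eed* (-0.03 ± 0.07) and *Suz12* (0.37 ± 0.09) were not called. Of 20 genes for H3K9 methylation and its removal 1 rose (5.0%) and 2 fell (10.0%), below the 14.0% and 12.8% over all genes. The demethylase genes *Kdm4c* (-1.71 ± 0.14) and *Jmjd1c* (-1.51 ± 0.12) fell and *Kdm3b* rose just past the fold limit (1.04 ± 0.08), a call lost with DESeq2, with DESeq2 size factors in edgeR and without D4PGCLC replicate 1.

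Of 16 FGF ligand and receptor genes 9 fell (56.2%) and 2 rose (12.5%), against 12.8% and 14.0% over all genes. Their median was -1.10, and the ligands *Fgf5*, *Fgf15* (-5.90 ± 0.58) and *Fgf8* (-4.46 ± 0.69) led the losses. Among the 22 ERK target genes listed, the immediate early genes *Fos* and *Egr1* had the largest changes, and *Fosb*, which is not on the list, fell further (-6.87 ± 0.39). *Fos* was at 107, 147 and 134 CPM in EpiLCs and 1.09, 0.994 and 1.63 in D4PGCLCs (-6.69 ± 0.26), and *Egr1* at 223, 286 and 276 against 4, 5.03 and 4.61 (-5.85 ± 0.27). The ERK feedback genes *Dusp6* and *Spry4* were not called, with *Dusp6* at 64.7, 68.8 and 75.5 against 61, 60.3 and 56.6 CPM and *Spry4* at 27.5, 31.3 and 34.3 against 26.5, 34.7 and 24. *Dusp4*, an ERK phosphatase gene, rose (1.25 ± 0.14), and *Spred3*, an inhibitor gene, fell (-3.03 ± 0.37). Of the 22 ERK target genes 5 rose and 5 fell, 22.7% each, against 14.0% and 12.8% over all genes.

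In the Nodal pathway 4 of 19 genes fell (21.1%) and 1 rose (5.3%), against 12.8% and 14.0% over all genes. *Lefty1*, a Nodal inhibitor and target, was at 932, 691 and 739 CPM in EpiLCs and 86.2, 105 and 102 in D4PGCLCs (-3.01 ± 0.15), and the coreceptor gene *Tdgf1* at 585, 698 and 686 against 146, 279.5 and 129 (-1.83 ± 0.28). *Lefty2* overlapped between the groups (-0.24 ± 0.13), and *Nodal* was lower in every D4PGCLC sample but not called (-0.65 ± 0.09). Among 23 BMP genes 6 rose (26.1%) and 5 fell (21.7%). The ligand gene *Bmp4* was at 4.9, 8.02 and 7.82 against 54.1, 82.2 and 60.6 CPM (3.24 ± 0.22). No BMP is listed in the day 4 medium. The BMP effector *Smad1* (1.12 ± 0.14) and inhibitory *Smad6* (1.81 ± 0.20) rose, the target *Id1* was higher in every sample without being called (0.91 ± 0.27), and *Msx1* fell (-4.22 ± 0.75) while *Msx2* rose (2.43 ± 0.50).

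WNT ligands moved in both directions. Of 41 WNT pathway genes 6 rose (14.6%) and 8 fell (19.5%), and the first share is close to that over all genes. *Wnt7b* was at 0.842, 0.0658 and 0.22 CPM in EpiLCs and 21.2, 21.4 and 20.8 in D4PGCLCs (5.85 ± 0.39), and *Wnt3a* at 0.23, 0.263 and 0.257 against 10.4, 14 and 9.82 (5.49 ± 0.49). *Wnt8a*, an epiblast ligand, was at 25.6, 15 and 16.9 against 0.546, 0.512 and 0.716 CPM (-5.01 ± 0.44). In the same samples the transcription factor genes *Lef1* (121, 125 and 120.4 against 15.4, 33.4 and 11.4 CPM, -2.61 ± 0.39) and *Tcf7* (-1.21 ± 0.10) fell and the feedback gene *Axin2* was not called (-0.65 ± 0.20). *T*, the mesoderm factor that WNT3 induces in the embryo, was below 1 CPM in all 6 samples and was called lower although its replicates overlapped. LIF and JAK-STAT genes gave 7 of 20 higher and 3 lower. The receptor genes *Lifr* (1.32 ± 0.13) and *Il6st* (1.67 ± 0.11) rose, and the kinase gene *Jak3* was at 3.44, 3.58 and 3.05 CPM in EpiLCs and 57.7, 72.4 and 46.9 in D4PGCLCs (4.13 ± 0.19). The PIM kinases parted, with *Pim1* at 70.9, 72.6 and 80.9 against 167, 199.9 and 194 CPM (1.32 ± 0.09) and *Pim2* at 339.7, 308 and 291 against 4.73, 6.51 and 4.53 (-5.89 ± 0.17). *Stat3* itself overlapped between groups (-0.01 ± 0.09), as did its target *Socs3*, at 5.62, 6.97 and 6.86 CPM in EpiLCs and 7.18, 19.9 and 6.24 in D4PGCLCs, with replicate 2 the highest.

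Of 23 Notch pathway genes 8 fell and 3 rose, with the Delta ligands in front. *Dll1* was at 89.96, 72.9 and 64.8 CPM in EpiLCs and 1.3, 0.994 and 1.4 in D4PGCLCs (-5.94 ± 0.29), and *Dll3* (-3.74 ± 0.32) and *Dll4* (-4.60 ± 0.92) fell too. Among the receptors, *Notch3* was at 128, 114 and 117 against 29.7, 28.7 and 28.1 CPM (-2.06 ± 0.11) and *Notch4* at 4.67, 5.56 and 6.31 against 50.4, 71.1 and 36.5 (3.25 ± 0.25). The groups were apart for both, in opposite directions, and *Notch1* was not called (0.30 ± 0.16). The basic helix-loop-helix genes *Hes6* (-3.67 ± 0.14) and *Hey1* (1.92 ± 0.29) likewise moved apart.

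D-type cyclins moved in both directions. *Ccnd1* was at 142, 149 and 159.7 CPM in EpiLCs and 20.6, 26.5 and 18.4 in D4PGCLCs (-2.79 ± 0.12), *Ccnd2* fell (-2.80 ± 0.28), and *Ccnd3* was at 95.7, 106 and 101 against 286, 307 and 358 (1.65 ± 0.08). The groups did not overlap for any of these. *Ccne1* (-1.17 ± 0.07) and *Myc* (-2.46 ± 0.31) fell, *Mycn* was lower by less than the fold limit (-0.44 ± 0.08), and *Rb1*, the G1 gatekeeper, rose (1.36 ± 0.16). The CDK inhibitor gene *Cdkn1c* was at 81.7, 64 and 65 against 1.24, 1.69 and 0.831 CPM (-5.81 ± 0.31). In this list of 22 genes 8 fell (36.4%) and 5 rose (22.7%), against 12.8% and 14.0% over all genes.

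Cholesterol synthesis and uptake genes fell nearly together. Of 25 tested 18 fell and none rose, with a median of -1.46. *Hmgcs1*, which encodes the HMG-CoA synthase of the pathway, was at 854, 776 and 756 CPM in EpiLCs and 278, 297 and 236 in D4PGCLCs (-1.56 ± 0.11). *Insig1*, whose product holds the sterol regulators in the endoplasmic reticulum, was at 282, 274 and 269 against 61.8, 84.2 and 55 CPM (-2.04 ± 0.17). No D4PGCLC sample reached the lowest EpiLC sample for these genes, and the CPM summed over the list was 5052 to 5177 in EpiLCs and 1731 to 2202 in D4PGCLCs. *Srebf2*, which encodes the transcription factor of the pathway, was not called (-0.25 ± 0.10). Of the 25 genes 16 were also lower than in ESCs.

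Of 28 glycolysis and hypoxia-responsive genes tested 11 fell and 2 rose, with a median of -0.73, and here D4PGCLC replicate 2 stood apart from the other two. The lactate exporter gene *Slc16a3* was at 481, 449.9 and 492 CPM in EpiLCs and 31.2, 141 and 6.24 in D4PGCLCs (-3.0 ± 0.94), a spread of 22.6-fold within the D4PGCLCs. *Ldha*, lactate dehydrogenase A, was at 1583, 1772 and 1753 against 242, 698 and 143 CPM (-2.24 ± 0.54), and the pyruvate kinase gene *Pkm* at 3946, 3812 and 4460 against 1419, 2453 and 1196 (-1.27 ± 0.24). Replicate 2 was the highest D4PGCLC sample each time and still below all EpiLCs. This was not particular to day 4, as *Ldha* was at 238, 848 and 192 CPM in D2PGCLCs and 299, 610 and 170 in D6PGCLCs. For *Slc16a3* and *Pkm* too, replicate 2 was the highest and replicate 3 the lowest in both of these groups. The CPM summed over the list was 21451 to 22897 in EpiLCs and 11213, 17433 and 10171 in D4PGCLC replicates 1, 2 and 3. Of the 28 genes, 13 lay below all EpiLCs in replicate 2, against 20 in replicate 1 and 20 in replicate 3. Without D4PGCLC replicate 2, 15 genes fell, without replicate 1 there were 9, and without replicate 3 there were 8. The glucose transporters moved apart, as *Slc2a1* was at 752, 818 and 830.5 against 172, 319.5 and 135 CPM (-1.94 ± 0.27) while *Slc2a3* was at 595, 825 and 806 against 1254, 1595 and 1144 (0.84 ± 0.15, not called). *Pfkp* (1.37 ± 0.13) and the hypoxia-responsive *Vegfa* (7.88, 10.6 and 8.66 against 114, 99.8 and 108 CPM, 3.56 ± 0.16) rose. Across the 11292 genes with a mean of at least 100 counts, 291 spread more than 2-fold among D4PGCLCs and 159 among EpiLCs. *Upp1* (11.8, 43.6 and 8.96 CPM in D4PGCLCs) and *Ndrg1* (13.2, 36.4 and 7.73) were others with a high replicate 2, again also in D2PGCLCs and D6PGCLCs.

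**Figure D4:**
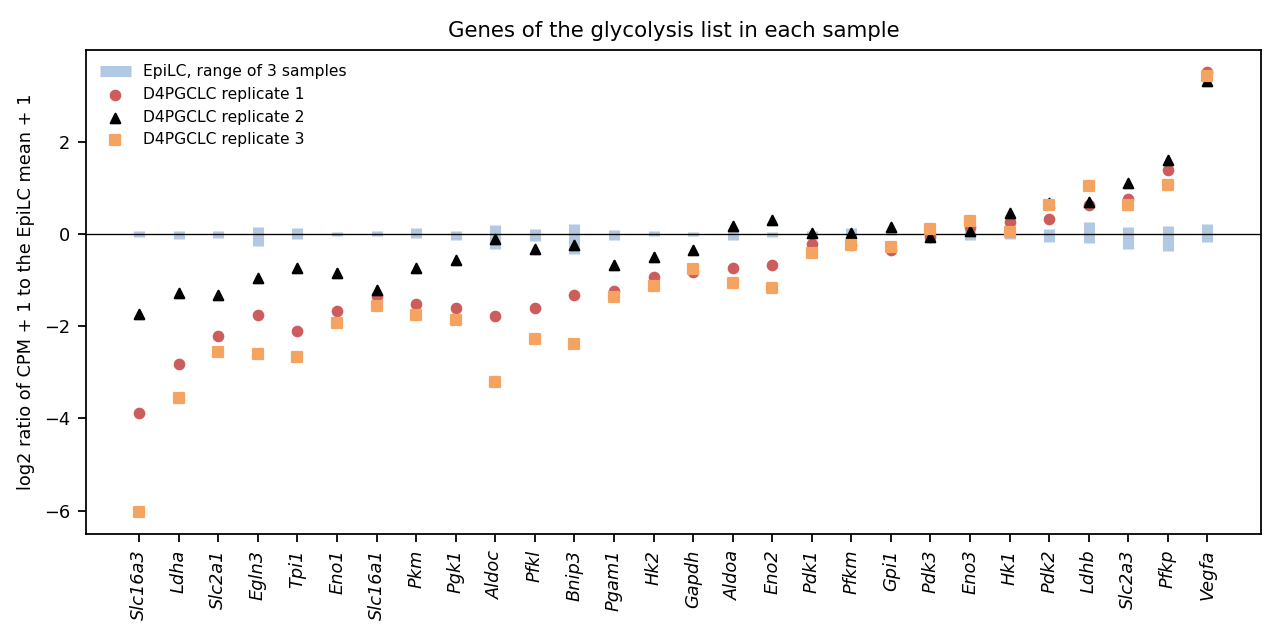
Log2 ratio of CPM plus 1 to the EpiLC mean plus 1 for 28 genes of the glycolysis list, ordered by the D4PGCLC mean. Bars span the 3 EpiLC samples and symbols are the 3 D4PGCLC replicates. Replicate 2 (triangles) lies above the other two for *Slc16a3*, *Ldha* and most genes that fell, but below them for *Vegfa*.

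The nuclear subunits of oxidative phosphorylation were seldom called, with 6 of 79 higher (7.6%), none lower and a median of 0.30. Over all genes 14.0% were higher and 12.8% lower. Without the fold limit 36 of the 79 were higher and 6 lower, against 5357 and 4727 of all 18090 genes tested. The D4PGCLC replicates stood apart here too, with 28, 47 and 62 of the 79 genes above all EpiLCs in replicates 1, 2 and 3 and median log2 ratios to the EpiLC mean (1 CPM added to both) of -0.01, 0.23 and 0.60. Such counts by single replicate were made for a few lists only and not over all genes. The nuclear subunits with the largest change were tissue-restricted isoforms of complex IV. *Cox6b2*, the testis isoform, was at 4.06, 3.75 and 6.38 CPM in EpiLCs and 41.2, 33.4 and 74.8 in D4PGCLCs (3.40 ± 0.29), *Cox7a1* rose (1.53 ± 0.31), and *Cox6a2* was at 0 in every EpiLC sample and 0.364, 0.211 and 0.802 CPM in D4PGCLCs. Of the 13 proteins encoded in mitochondria, *mt-Nd6* rose just past the fold limit (1.03 ± 0.15) and the rest were not called, with a median of 0.61. The *mt-Nd6* call was lost with DESeq2, with DESeq2 size factors in edgeR and without D4PGCLC replicate 1. All 13 lay above all EpiLCs in D4PGCLC replicate 1, 7 in replicate 2 and 10 in replicate 3, with median log2 ratios to the EpiLC mean (1 CPM added to both) of 0.33, 0.12 and 0.34. Each of these 3 medians was below the median fitted log2 fold change of 0.61, so the size of the shift depended on the measure. The CPM summed over the 13 was 12668 to 16774 in EpiLCs and 16927 to 20053 in D4PGCLCs. Mitochondrial genes took 1.28% to 1.66% of all counts in EpiLCs and 1.79% to 2.22% in D4PGCLCs.

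MHC class I and antigen processing genes fell in 12 of 14 cases, none rose and the median was -1.69. *H2-K1* was at 66.2, 73.8 and 79.6 CPM in EpiLCs and 19.6, 29.1 and 20.8 in D4PGCLCs (-1.66 ± 0.21). The immunoproteasome genes *Psmb8* (-3.79 ± 0.60) and *Psmb10* (-3.02 ± 0.20) and the peptide transporter genes *Tap1* (-1.61 ± 0.27) and *Tap2* (-1.60 ± 0.26) fell. *Tapbp* (0.54 ± 0.11) and *Irf1* (-0.81 ± 0.10) were not called. Against ESCs, the same list gave 3 higher and 4 lower. Class I heavy chain genes are alike in sequence and their reads may be shared.

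Imprinted genes fell in 13 of 44 cases and rose in 1, *Trappc9* (1.58 ± 0.12), with a median of -0.54. The maternally expressed RNAs of the *Dlk1* cluster on chromosome 12 fell together, with *Rian* at 155, 181 and 159.7 CPM in EpiLCs and 19.16, 11 and 17.3 in D4PGCLCs (-3.38 ± 0.17), *Meg3* at 23.9, 26.3 and 28.5 against 5.49, 3.19 and 6.9 (-2.33 ± 0.25) and *Mirg* at -2.15. The groups were apart for *Rian* and *Meg3*. *Mest* was at 635, 645 and 603 against 145, 142 and 142 CPM (-2.13 ± 0.08), and *Peg10* (-1.76 ± 0.33), *Nnat* (-5.57 ± 0.46) and *Phlda2* (-4.14 ± 0.45) fell. *H19* overlapped at 133, 102 and 121 CPM in EpiLCs and 124, 159.5 and 109 in D4PGCLCs, and *Igf2r* (0.53 ± 0.11) and *Peg3* (-0.34 ± 0.14) were not called. Counts here sum both alleles.

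Of 30 adhesion genes 9 rose and 6 fell. E-cadherin, *Cdh1*, was at 625, 622 and 622 CPM in EpiLCs and 259, 301 and 224 in D4PGCLCs (-1.25 ± 0.09), and P-cadherin, *Cdh3*, at 53.6, 51.8 and 44.5 against 131, 127 and 135 (1.39 ± 0.10). *Itgav*, the partner chain of integrin beta-3, rose just past the fold limit (1.08 ± 0.10), and the tight junction gene *Cldn3* rose further (2.44 ± 0.23). Of 27 collagen and laminin genes 11 fell (40.7%) and 4 rose (14.8%), the second share close to the 14.0% over all genes. The epiblast laminin gene *Lama5* was at 275, 248 and 237 against 58.9, 69 and 43.6 CPM (-2.15 ± 0.15), and nidogen-1, *Nid1*, at 20.2, 28.4 and 23.8 against 89.7, 84.7 and 81 (1.82 ± 0.10).

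Markers of other lineages moved in both directions. Of 17 neural markers 3 rose (17.6%) and 9 fell (52.9%), and of 15 mesoderm markers 4 (26.7%) and 4 (26.7%). Of 15 endoderm markers 3 rose (20.0%) and 4 fell (26.7%). Over all genes the shares were 14.0% and 12.8%. Single members such as *Sox1* (1.06 CPM in EpiLCs on average and 0.403 in D4PGCLCs), *Mesp2* (0.736 and 0.263) and *Foxa2* (1.04 and 0.131) were near or below 1 CPM. They do not stand for their lists, in which other members were counted at higher levels. Summed over each list, levels ran from 339.92 to 388.25 CPM in EpiLCs and 132.33 to 159.73 in D4PGCLCs for neural, 30.88 to 34.63 and 36.11 to 51.18 for mesoderm, and 302.71 to 321.47 and 202.16 to 206.9 for endoderm markers. Trophoblast markers gave 8 of 16 higher and 4 lower, with sums of 70.01 to 84.44 CPM in EpiLCs and 114.45 to 130.53 in D4PGCLCs. *Gata3* was at 0.383, 0.296 and 0.771 CPM in EpiLCs and 6.64, 5.84 and 8.73 in D4PGCLCs (3.87 ± 0.32), *Tead4* at 3.75, 5.06 and 4.73 against 32.1, 34.2 and 31.3 (2.84 ± 0.13) and *Elf5* at 0, 0.132 and 0 against 1.21, 1.11 and 0.659 (4.30 ± 0.85). *Gata3* and *Tead4* rose clear of the EpiLC range, yet *Cdx2*, which defines trophectoderm, was below 1 CPM in all 6 samples (-1.60 ± 0.61, a call lost without any of 3 single samples), and the keratin genes *Krt8* (-2.19 ± 0.20) and *Krt18* (-1.5 ± 0.14) fell. Fibroblast markers were at 36.62 to 40.29 CPM summed over the 11 tested in EpiLCs and 16.38 to 22.14 in D4PGCLCs. Of these 5 fell and 1 rose, and *Dcn* was at 6.89, 5.69 and 4.92 CPM in EpiLCs and 0 in all D4PGCLC samples, at least 65.5-fold lower when 3 counts per library are set as the floor. The part of these cell types in other differences was not tested. Endothelial and blood markers gave 1 of 9 higher, *Pecam1* (1.25 ± 0.08), which is also in the naive list, and 3 lower. Their median log2 fold change was -0.67. Sums were 179.73 to 207.68 CPM in EpiLCs and 412.71 to 459.32 in D4PGCLCs, with *Pecam1* the only member called higher.

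Among called genes with a mean of at least 100 counts, the largest log2 gains beside *Rhox6*, *Rhox9*, *Wnt7b*, *Wnt3a* and *Itgb3* included those of *BC048679* (0.383, 0.132 and 0.33 CPM in EpiLCs and 19.5, 21.1 and 17.3 in D4PGCLCs, 6.11 ± 0.38), *Capn6* (5.94 ± 0.36) and *Uroc1* (5.54 ± 0.41). The largest losses were led by *Grm6*, a glutamate receptor gene at 11.7, 11.5 and 12.3 CPM in EpiLCs and 0, 0.0904 and 0 in D4PGCLCs, the long noncoding RNA *Miat* at 10.1, 8.88 and 7.67 against 0, 0.0301 and 0.0573, and *Jakmip2* (-7.90 ± 0.63). Every EpiLC sample held these transcripts and the D4PGCLC samples hardly any. In all, 51 genes had at least 30 counts in every EpiLC sample and at most 3 in every D4PGCLC sample, and 25 the reverse. The 25 were led by *AA467197* (0.0765, 0.0658 and 0.11 CPM in EpiLCs and 4.64, 5 and 7.47 in D4PGCLCs). *Kynu*, a kynureninase gene among the 51, was at 5.32, 5.95 and 6.09 CPM in EpiLCs and 0 in D4PGCLCs. *Xist* was at 7.46, 12.3 and 10.6 CPM in EpiLCs and 0.091, 0.151 and 0 in D4PGCLCs of this male line (-6.92 ± 0.82), and it overlaps its antisense partner *Tsix* (-1.14 ± 0.25), so the split between them is uncertain without the strand setting of the counting.

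Per kilobase of exon, the largest gains in CPM after *Dppa3* were *Asns*, asparagine synthetase (146, 158 and 143 CPM in EpiLCs and 1097, 1023 and 1158 in D4PGCLCs, 2.87 ± 0.15), *Ifitm3*, the small heat shock protein gene *Hspb1* (1.81 ± 0.13) and *Apoe*, which carries lipids (1.22 ± 0.14). Losses per kilobase were headed by *Pkm* and *Ldha*, then *Lefty1*, *Dnmt3b*, *Eno1* (-1.41 ± 0.26) and the nuclear import gene *Kpnb1* (2896, 3131 and 3119 against 1399, 1479 and 1201 CPM, -1.16 ± 0.08). The EpiLC and D4PGCLC values did not overlap for any of these. *Asns* averaged 976 CPM in ESCs, 1363 in D2PGCLCs and 678 in D6PGCLCs, so that EpiLCs had the lowest mean of the 5 groups.

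Position on the genome was uneven for chromosome 8. Its 957 tested genes had a median log2 fold change of 0.228, the highest of any autosome, and the others ran from -0.128 on chromosome 13 to 0.136. Of these genes 17.55% rose, against 14.0% over all genes, and on chromosome 19 the share was higher, at 17.92%. Relative to the EpiLC mean and to the other autosomes, the median over the 594 chromosome 8 genes with at least 5 CPM was 0.182, 0.228 and 0.186 in the D4PGCLC replicates on the log2 scale. It was -0.021 to 0.023 in EpiLCs, 0.282 to 0.315 in ESCs, 0.136 to 0.179 in D2PGCLCs and 0.223 to 0.259 in D6PGCLCs. All 12 samples other than EpiLCs lay above the EpiLCs, and the offset was present in each of 4 stretches with equal numbers of genes, with D4PGCLC medians of 0.218 to 0.289 before the other autosomes were subtracted. This pattern was examined after the chromosome medians were seen. DNA copy number in these cultures was not analysed here, and its part in the fold changes of chromosome 8 genes was not tested. The X chromosome was shifted the other way, with 19.59% of its genes lower, against 12.8% over all genes, and a median of -0.145. Relative to the EpiLC mean and the autosomes, X was at -0.156, -0.2 and -0.191 in D4PGCLCs and -0.177, -0.137 and -0.157 in ESCs. Chromosome 13 was similarly low in D4PGCLCs, at -0.131, -0.199 and -0.192. Long noncoding RNAs rose in 19.12% of cases and fell in 12.1%, against 14.3% and 13.03% for protein-coding genes. Protein-coding genes that rose, fell or were not called had median exonic lengths of 3959, 4074 and 4435 bases and GC contents of 51.87%, 50.8% and 49.63%.

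**Figure D5:**
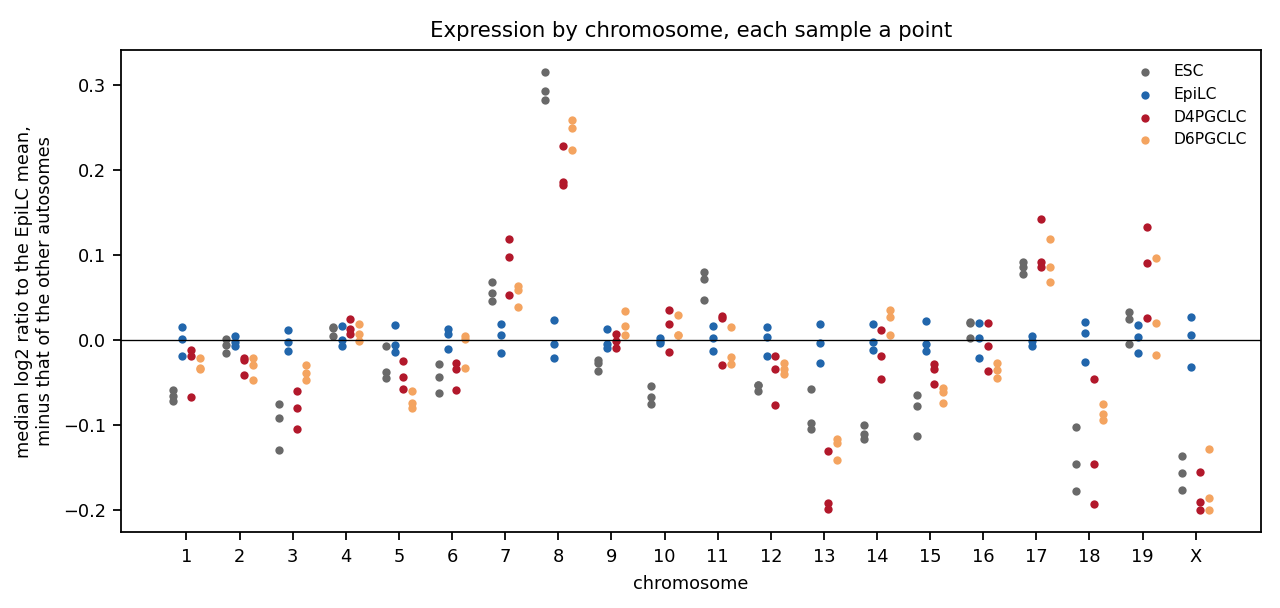
Median log2 ratio of each sample to the EpiLC mean over the genes of a chromosome with at least 5 CPM, after subtraction of the median of the other autosomes. Each point is a sample of ESCs, EpiLCs, D4PGCLCs or D6PGCLCs. Chromosome 8 is the only autosome on which all 3 D4PGCLC samples lie at 0.182 or higher.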

How the data were processed

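RNA-seq of ESCs, EpiLCs and 4TF-induced PGCLCs used TRIzol RNA and a strand-marking library kit. The authors deposited raw counts per gene for 15 samples, aligned to mm10, and the submitters' processing notes name Trim Galore, FastQC and STAR. The counter, its strand setting and its treatment of reads with several matches are not given in the sources used here, so multigene families and antisense pairs are uncertain. Genes were named from GENCODE M21. Counts were filtered (filterByExpr), normalized by TMM and tested in edgeR 4.0.16 (R 4.3.3), with 1 coefficient for each of the 5 groups over all 15 samples and the quasi-likelihood test, and DESeq2 1.42.0 served as an alternative. Adjusted p-values cover all 18090 genes tested, and a gene was called when the adjusted p was below 0.05 with a log2 fold change beyond 1 in size. CPM use TMM-scaled library sizes. In counts simulated from the fitted spread for this comparison, edgeR recovered 198 of 200 changed genes with 4 false calls. The changed genes were above 5 CPM in EpiLCs, with log2 folds of 1.5, 2 or 3 in size, all past the fold limit. The simulation therefore does not cover changes in genes at lower levels. Genes named are the 15 highest and lowest changes and the 10 largest gains and losses per kilobase, genes on or off by counts, the 10 with the widest D4PGCLC spread, and members of 39 gene lists. Some genes that these rules would name are not reported here. The comparison and the lists were chosen with earlier results of these data known.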

Additional observations from a re-analysis of the deposited data

How the results depend on the processing

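The counts of 2532 higher and 2322 lower genes stayed within 1.5 times under DESeq2 (2462 and 2635), edgeR with DESeq2 scaling, all genes kept whatever their counts (2694 and 2455) and a fit of only the 6 samples. They moved to 1461 and 1325 when the fold limit was tested within edgeR, and to 5357 and 4727 without a fold limit. Leaving out single samples gave 2373 to 2514 higher and 2105 to 2262 lower genes. Between EpiLCs and D4PGCLCs, samples with the same replicate number did not deviate together over all genes (correlations of -0.0285, 0.000995 and -0.00264). Whether PGCLC samples of the same number are paired across days was not tested. The fit treated them as independent, although glycolysis genes named above ranked the replicates alike on each day. A fit with the replicate block called 2500 higher and 2320 lower. Of 162 called genes named in the text, 136 stayed called under each of the 13 alternatives in which they were tested. A gene filtered out of an alternative was not counted as lost there. Removing the fold limit, which is among the 13, could not end a call. With the fold limit tested within edgeR, calls fell to 5 of 38 meiotic and 5 of 24 piRNA genes higher and to 4 of 16 FGF and 3 of 28 glycolysis genes lower. Calls lost without single samples were those of *Aldh1a3* (2.15 to 5.55 over the alternatives), *Cdx2* (-1.94 to -1.16), *Fgf4* (-1.20 to -0.94), *Nobox* (-2.58 to -1.58), *Rad21l* (-3.11 to -1.89), *Sohlh1* (-6.12 to -2.43), *Tdg* (-1.08 to -0.96), *Kdm3b* (0.98 to 1.13), *Itgav* (0.98 to 1.18), *Uhrf1* (-1.25 to -0.99), *mt-Nd6* (0.97 to 1.10) and *T*. DESeq2 also ended the calls of *Kdm3b*, *mt-Nd6* and *Sohlh1*, its size factors in edgeR those of *Kdm3b* and *mt-Nd6*, and keeping all genes those of *Aldh1a3*, *Cdx2*, *Rad21l*, *Sohlh1* and *Tdg*. The cause was not tested.

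Only genes that were not called changed sign. With DESeq2 and with its size factors, *Max* was at -0.04, *Sycp2* at -0.04 and *Tet1* at -0.01. *Stat3* was at 0.01 with no filter, and *Sycp2* at -0.12 with the replicate block. Leaving out single samples gave ranges that crossed 0 for *Stat3* (-0.12 to 0.06), *Max* (-0.02 to 0.09), *Sycp1* (-0.11 to 0.52), *Sycp2* (-0.39 to 0.34), *Tet1* (-0.13 to 0.20), *Eed* (-0.06 to 0.01), *Eif4e3* (-0.18 to 0.08), *H19* (-0.03 to 0.26), *Sohlh2* (-0.00 to 0.14) and *Tex15* (-0.19 to 0.30). Depth limits what can be said of genes near 0.115 CPM, which is 3 counts in the shallowest of the 6 samples.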

Other observations

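Genes that mark the rare 2-cell-like state of ESC cultures fell from EpiLCs to D4PGCLCs in 8 of 9 cases (88.9%, against 12.8% over all genes), and none rose. From D4PGCLCs to D6PGCLCs 6 of the 9 rose and none fell, with a median log2 fold change of 2.63 (D6PGCLCs minus D4PGCLCs). *Zscan4d* was at 7.58, 9.6 and 9.91 CPM in EpiLCs and 0.0303, 0.301 and 0.0573 in D4PGCLCs (-6.09 ± 0.80), and *Zscan4c* at 7.12, 9.63 and 11.1 against 0.273, 0.482 and 0.172 (-4.90 ± 0.42). The groups did not overlap. Summed over the 9 genes, levels were 32.6 to 46.68 CPM in EpiLCs and 4.44 to 6.33 in D4PGCLCs. *Eif4e3*, the ninth member, overlapped between groups (-0.07 ± 0.29). The *Zscan4* and *Usp17l* genes are multicopy families, so the split of reads among copies is uncertain.

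Of 17 retinoic acid genes 1 rose (5.9%) and 3 fell (17.6%), against 14.0% and 12.8% over all genes. The rise, of the synthesis gene *Aldh1a3* (2.70 ± 0.93), was lost with all genes kept whatever their counts and when EpiLC replicate 1, EpiLC replicate 2 or D4PGCLC replicate 3 was left out. *Crabp2*, which carries retinoic acid to the nucleus, was at 30.9, 19.7 and 19.6 CPM in EpiLCs and 1.09, 1.24 and 1.46 in D4PGCLCs (-4.20 ± 0.36), and the receptor gene *Rxrg* at 3.56, 2.63 and 3.78 against 0.091, 0.0301 and 0 (-6.25 ± 0.82). Neither pair of groups overlapped. Of 18 Hox genes tested 6 rose and 2 fell, all at low levels, with a sum of 4.11 to 5.59 CPM in EpiLCs and 8.71 to 9.49 in D4PGCLCs. Of those that fell, *Hoxb1* was at 1.26, 0.625 and 0.734 against 0.0303, 0 and 0 CPM (-5.98 ± 1.26). Among 21 p53 target genes 3 rose (14.3%) and none fell. *Perp*, a membrane protein gene, was at 5.78, 4.7 and 3.05 against 20.4, 20.3 and 24 CPM (2.26 ± 0.22), while the classical target *Cdkn1a* was lower in every D4PGCLC sample without being called (-0.47 ± 0.13).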
